A study of Homo sapiens with 6 samples.

Results

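NKX2-1, FOXA1, FOXA2, FOXA3, HNF4A, HNF4G, GATA6 and SOX9 encode transcription factors that specify lung, liver and gut epithelium, and their transcripts were measured in A549 cells with and without IL17D overexpression. The 8 genes were chosen by name from the 58735 genes of the authors' count table, and the rule that picks them uses no measured value, although earlier results of these data were known when they were chosen. A549 is a human lung adenocarcinoma cell line. Control cells carried an empty lentiviral vector and IL17D-overexpressing cells carried the same kind of vector with the IL17D coding sequence, with 3 libraries of total RNA in each group. Both groups were grown in RPMI1640 with fetal bovine serum, and both therefore share the viral vector, whose shuttle in the methods holds an hPGK promoter and IRES-linked GFP. Whether replicates were transduced or cultured apart is not given in the sources used here, so p-values measure the spread between these libraries, which may be technical. The values below give the level of each lineage factor in control cells and its difference in IL17D-overexpressing cells.

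FOXA1, FOXA2 and FOXA3 are forkhead proteins called pioneer factors because they bind DNA within closed chromatin and open it for others, and FOXA1 and FOXA2 are needed for lung, liver and gut formation. GATA6 is a zinc finger factor that works beside them in endoderm and in the differentiation of distal lung epithelium. NKX2-1 (also called TTF-1) is the homeobox factor of lung and thyroid and drives the surfactant genes. HNF4A and HNF4G are nuclear receptors of liver, intestine and kidney, and HNF4A is known to appear in mucinous lung adenocarcinoma that lacks NKX2-1. SOX9 is an HMG box factor of distal lung progenitors, intestinal crypts and cartilage.

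Factors of these families are known to regulate one another's genes, and the 250 bases before the start site are shown for those windows in which a short core motif of such a factor was found. RefSeq windows (GRCh38.p14) were at hand for 5 of the 8 genes, 7 windows in all, and SOX9, FOXA2 and HNF4G had no entry. HNF4A is shown with both of its promoters because its transcripts start at either and the count per gene adds them. NKX2-1 and FOXA1 are shown because they are the near-silent and the expressed lineage factor of the same stretch of chromosome 14. Sequences run 5′ to 3′ on the strand of the gene, and capitals mark a motif on either strand.
HNF4A upstream promoter, chr20:44355449-44355698 (+): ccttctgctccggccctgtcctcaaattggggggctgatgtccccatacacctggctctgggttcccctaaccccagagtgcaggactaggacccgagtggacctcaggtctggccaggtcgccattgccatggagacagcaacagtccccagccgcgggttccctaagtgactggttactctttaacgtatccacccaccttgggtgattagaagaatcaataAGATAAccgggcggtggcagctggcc
HNF4A downstream promoter, chr20:44400989-44401238 (+): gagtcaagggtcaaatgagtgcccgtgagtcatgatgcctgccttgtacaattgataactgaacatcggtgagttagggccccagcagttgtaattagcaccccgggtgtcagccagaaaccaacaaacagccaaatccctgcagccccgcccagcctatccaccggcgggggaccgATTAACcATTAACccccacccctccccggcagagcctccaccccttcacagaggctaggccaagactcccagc
NKX2-1, chr14:36519557-36519806 (-): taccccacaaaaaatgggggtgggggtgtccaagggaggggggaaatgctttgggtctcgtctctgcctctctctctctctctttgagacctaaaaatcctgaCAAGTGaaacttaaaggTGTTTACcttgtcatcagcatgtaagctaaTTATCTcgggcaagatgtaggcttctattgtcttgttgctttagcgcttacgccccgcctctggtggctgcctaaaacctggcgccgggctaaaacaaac
FOXA1, chr14:37595250-37595499 (-): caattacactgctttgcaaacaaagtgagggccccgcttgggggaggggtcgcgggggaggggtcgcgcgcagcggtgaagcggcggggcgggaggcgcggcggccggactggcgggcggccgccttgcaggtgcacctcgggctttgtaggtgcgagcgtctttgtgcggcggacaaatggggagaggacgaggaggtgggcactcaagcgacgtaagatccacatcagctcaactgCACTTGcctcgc

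The upstream HNF4A window held the GATA core AGATAA at 26 to 21 bases before the start. The downstream HNF4A window held the HNF1 core GTTAAT on the opposite strand (printed as ATTAAC) at 73 to 68 and again at 66 to 61 bases before the start. The NKX2-1 window held the FOXA core TGTTTAC at 130 to 124 bases, the GATA core on the opposite strand (TTATCT) at 100 to 95 bases and the NKX2 core CAAGTG at 147 to 142 bases before the start. The FOXA1 window held the NKX2 core on the opposite strand (CACTTG) at 12 to 7 bases before its start. The HNF4 core CAAAGTCCA and the SOX core ACAATG were searched on both strands as well and were in none of the 7 windows. Such letters are common. Of 35093 RefSeq promoter windows of the same length, 2.98% held the FOXA core, 6.23% the HNF1 core, 0.325% the HNF4 core, 9.17% the GATA core, 9.29% the SOX core and 9.50% the NKX2 core on either strand, so a match describes the sequence and is not a measured site.

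The 6 libraries held 14319398 to 16521021 counts on genes, and IL17D itself separated the groups, with 18 to 34 counts in control libraries and 26772 to 32155 counts in IL17D-overexpressing libraries. The labelled cell type fitted its markers. Epithelial marker genes (EPCAM, CDH1 and 4 keratins) summed to 12737 to 13243 CPM (counts per 1000000 counts of the library) in control and 12371 to 12619 CPM in IL17D-overexpressing libraries. Of these 6 genes, 5 passed the filter on low counts and 4 had at least 10 counts in every library, so the sum does not stand for each marker. The leukocyte genes PTPRC and CD3E had no count in any library, and neither had CDKN2A and CDKN2B, which lie in a known deletion of A549. The 6 leukocyte markers summed to 0.730 to 1.34 CPM over all libraries, the 4 endothelial markers to 0.070 to 0.608 CPM and the 5 fibroblast markers to 19.4 to 24.6 CPM, nearly all of it COL1A1. CPM are scaled by edgeR's trimmed mean of M values (TMM). A library with no count could hide up to 3 counts of a gene, which is 0.182 to 0.210 CPM, and this limit covers counting error only.

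A549 control cells expressed SOX9 and FOXA2 well, FOXA1, HNF4A and GATA6 at a moderate level, HNF4G and FOXA3 weakly, and NKX2-1 at a trace. To compare genes, CPM were divided by the gene length in the table, giving CPM per kilobase (RPKM). SOX9 had a mean of 20.6 ± 0.596 RPKM (SD, n = 3) and FOXA2 16.3 ± 0.982 RPKM (SD, n = 3) in control libraries. SOX9 stood above 86.2% and FOXA2 above 82.2% of the 15754 genes that passed the filter on low counts (edgeR's filterByExpr). FOXA1 had 4.99 ± 0.433 RPKM (SD, n = 3), HNF4A 4.19 ± 0.564 RPKM (SD, n = 3) and GATA6 2.83 ± 0.463 RPKM (SD, n = 3), above 54.6%, 50.2% and 41.4% of those genes. HNF4G had 0.936 ± 0.163 RPKM (SD, n = 3) and FOXA3 0.629 ± 0.168 RPKM (SD, n = 3), above 20.7% and 15.0% of them. NKX2-1 came last with 0.142 ± 0.040 RPKM (SD, n = 3) and did not pass the filter.

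Going down this order in control libraries, the mean of SOX9 was 1.27 times that of FOXA2, FOXA2 3.26 times FOXA1, HNF4A 1.48 times GATA6, GATA6 3.03 times HNF4G and FOXA3 4.43 times NKX2-1, and in none of these pairs did the 3 values of one gene reach those of the next. FOXA1 and HNF4A (ratio 1.19) overlapped, and so did HNF4G and FOXA3 (ratio 1.49), so their order per length is not set by these libraries. The length used is that of all exons of a gene, over all its transcripts, and the order depends on it. Before division by length, HNF4A had 26.2 to 34.3 CPM and FOXA1 17.9 to 21.1 CPM in control libraries. HNF4G had 3.63 to 5.16 CPM and FOXA3 0.995 to 1.73 CPM there. IL17D-overexpressing libraries had the same order of means, and there the HNF4G and FOXA3 values again overlapped while those of FOXA1 and HNF4A did not.

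**Figure D1:**
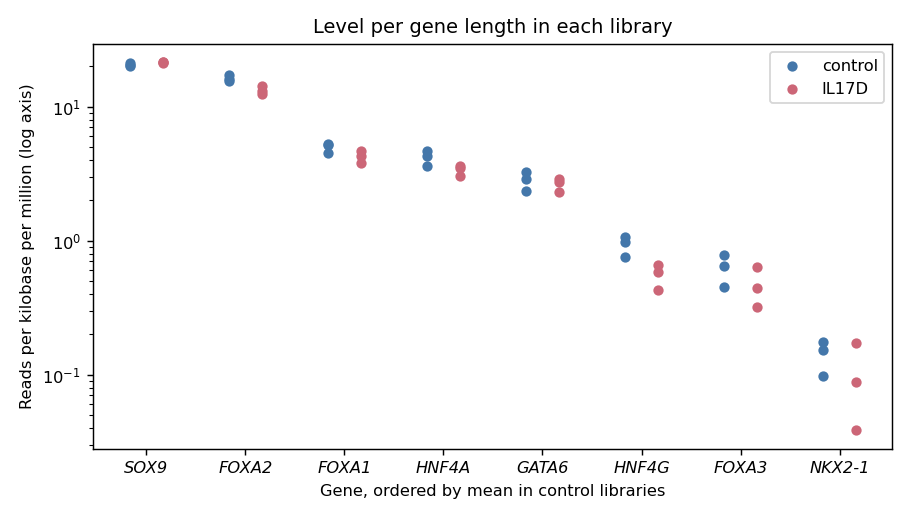
Level of the 8 lineage factor genes in each library, in RPKM on a log axis, with genes ordered by their mean in control libraries (blue, control; red, IL17D-overexpressing; 1 point per library). Control means run from 20.6 for SOX9 to 0.142 for NKX2-1, and the blue and red points lie apart for SOX9, FOXA2 and HNF4G.

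Of the 7 factors tested, FOXA2 was the only one that changed at an adjusted p under 0.05 (edgeR's quasi-likelihood test, Benjamini-Hochberg adjustment over all tested genes), and it fell. That call takes 1.58% of all tested genes, 0.908% as lower and 0.673% as higher in IL17D-overexpressing cells. The fitted values were below 0 for 6 genes and above 0 for SOX9, with a median log2 fold change of -0.30, against -0.00 over all tested genes. An unadjusted p under 0.05 with a lower value was found for 4 genes (FOXA2, HNF4A, HNF4G and FOXA1), where 5.99% of all tested genes had one, and 11.6% had one in either direction. The libraries of the groups did not overlap for FOXA2 and HNF4G, which were lower, and for SOX9, which was higher in IL17D-overexpressing cells. Over all tested genes, 15.8% had groups without overlap, 8.31% lower and 7.48% higher. In bulk RNA, fewer cells with a transcript and less of it per cell cannot be told apart.

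**Figure D2:**
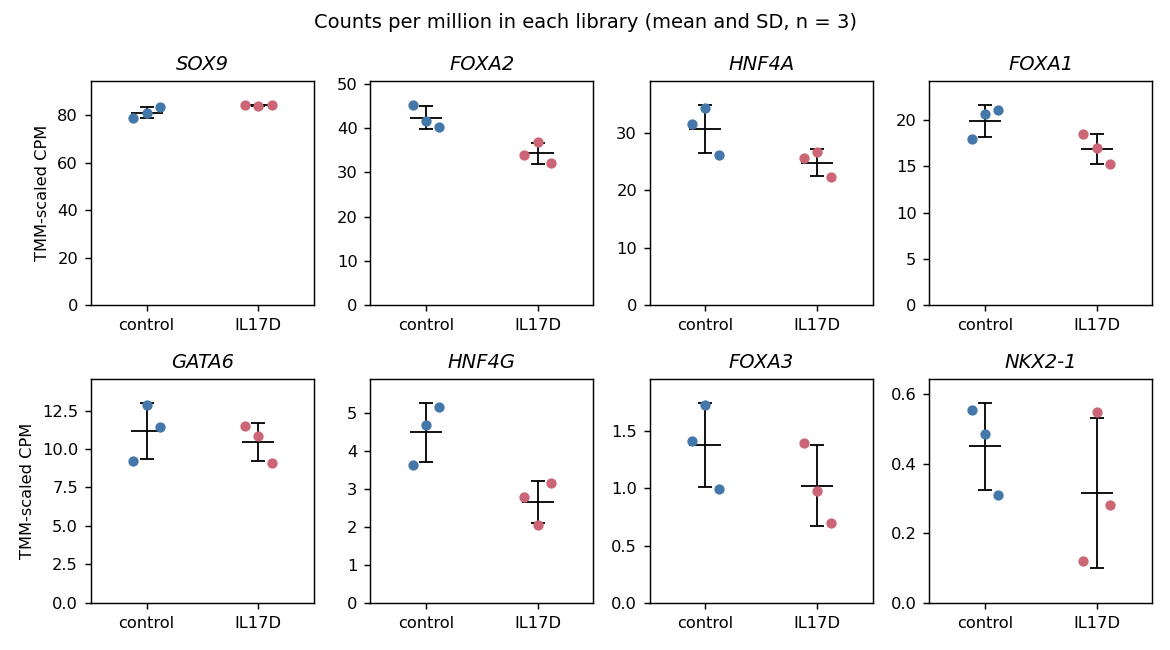
TMM-scaled CPM of each lineage factor in the 3 control (blue) and 3 IL17D-overexpressing (red) libraries, with the mean and SD in black and a vertical axis from 0 in every panel. FOXA2 and HNF4G sit lower in every IL17D-overexpressing library, SOX9 sits slightly higher, and the other 5 panels overlap.

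FOXA2 (ENSG00000125798, chromosome 20 of GRCh38, 22581005 to 22585455, minus strand) had 735, 602 and 648 counts in control libraries and 559, 606 and 459 counts in IL17D-overexpressing libraries, both in the order of replicates 1, 2 and 3. These were 45.2, 41.6 and 40.3 CPM in control and 34.0, 36.9 and 32.2 CPM in IL17D-overexpressing cells. Every IL17D-overexpressing library lay below every control library. The mean of FOXA2 fell from 42.4 ± 2.56 to 34.3 ± 2.36 CPM (SD, n = 3 each). Its fitted log2 fold change was -0.30, which is 18.9% lower (standard error 0.071, 95% interval -0.45 to -0.16, adjusted p = 0.0155, edgeR's quasi-likelihood test). The call, though not the direction, depended on the libraries kept. Without control replicate 1 the log2 fold change was -0.25 with an adjusted p of 0.137 in edgeR's test. Without IL17D replicate 1 it was -0.29 with 0.0769, and without IL17D replicate 3 it was -0.26 with 0.162. Over all fits that left out a library the FOXA2 value ran from -0.36 to -0.25. Those fits called 77 to 137 genes lower, against 143 with all libraries, so a lost call does not show that the fall came from 1 library. The epithelial adhesion gene CDH1 was also lower, from 43.4 ± 2.65 CPM to 35.7 ± 3.32 CPM (SD, n = 3 each, log2 fold change -0.28, adjusted p = 0.0306 in edgeR's test), and its part in the fall of FOXA2 was not tested. CDH1 was picked after the values were seen and was the 1 called gene of 5 tested epithelial markers. All 5 had negative values, from -0.28 for CDH1 to -0.01, with a median log2 fold change of -0.07. The CDH1 call was lost in 5 of 13 other settings, among them DESeq2's Wald test (adjusted p = 0.0659) and the fits without control replicate 2 (0.0729), without control replicate 3 (0.129), without IL17D replicate 1 (0.260) and without IL17D replicate 2 (0.0755).

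FOXA1 (ENSG00000129514, chromosome 14, 37589984 to 37596059, minus strand), which overlaps FOXA2 in function in lung, had 291, 299 and 339 counts in control libraries (replicates 1, 2 and 3), which were 17.9, 20.7 and 21.1 CPM. IL17D-overexpressing libraries had 304, 279 and 217 counts, between 15.2 CPM (replicate 3) and 18.5 CPM (replicate 1). Control replicate 1 lay below IL17D replicate 1, so the groups overlapped. The means were 19.9 ± 1.73 and 16.9 ± 1.64 CPM (SD, n = 3), and the log2 fold change of -0.23 (standard error 0.100, 95% interval -0.43 to -0.03) had an adjusted p of 0.342 in edgeR's test. FOXA3 (ENSG00000170608, chromosome 19, 45863989 to 45873797, plus strand), the family member most tied to liver and gut, had only 10 to 25 counts per library. Its levels were 1.42, 1.73 and 0.995 CPM in control and 1.40, 0.973 and 0.701 CPM in IL17D-overexpressing libraries. The groups overlapped, and the interval of its log2 fold change ran from -1.17 to 0.35 (value -0.41, standard error 0.374, adjusted p = 0.754 in edgeR's test), so a change of the size seen for FOXA2 was not detectable at this depth.

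HNF4A (ENSG00000101076, chromosome 20, 44355700 to 44434596, plus strand) had 512, 496 and 421 counts in control libraries (replicates 1, 2 and 3) and 421, 437 and 317 in IL17D-overexpressing replicates, which were 31.5, 34.3 and 26.2 CPM and 25.6, 26.6 and 22.2 CPM. Control replicate 3 was the low library of its group and lay just under IL17D replicate 2. The means were 30.7 ± 4.12 and 24.8 ± 2.29 CPM (SD, n = 3), and the log2 fold change of -0.30 equalled that of FOXA2 to the second decimal, but with a larger standard error (0.090, 95% interval -0.48 to -0.12) its adjusted p was 0.0950 in edgeR's test. The gene crossed the threshold when all 32373 genes with at least 1 count were tested (adjusted p = 0.0394, edgeR) and when control replicate 3, its low control library, was left out (log2 fold change -0.40, adjusted p = 0.00744, edgeR). Other left-out libraries moved it the other way. Its log2 fold change was -0.22 without control replicate 2 (adjusted p = 0.448, edgeR) and -0.23 without IL17D replicate 3 (adjusted p = 0.435, edgeR). Its 9 GENCODE transcripts start at 6 positions spread over 45.6 kb, so the printed upstream and downstream promoters were counted as 1 gene and their shares are not known from these counts.

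HNF4G (ENSG00000164749, chromosome 8, 75407914 to 75566843, plus strand), a relative of HNF4A that is expressed in intestine, had 59, 68 and 83 counts in control libraries (replicates 1, 2 and 3) and 46, 34 and 45 in IL17D-overexpressing replicates. These were 3.63, 4.70 and 5.16 CPM and 2.80, 2.07 and 3.15 CPM, so every IL17D-overexpressing library lay below the lowest control library. The means were 4.50 ± 0.785 and 2.67 ± 0.553 CPM (SD, n = 3). The fitted log2 fold change of -0.75, a difference of -40.7% (standard error 0.222, 95% interval -1.21 to -0.30), had an unadjusted p of 0.00171 and an adjusted p of 0.0838 in edgeR's test. None of the 13 other settings brought the adjusted p under 0.05 (lowest adjusted p 0.0530, highest 0.315).

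SOX9 (ENSG00000125398, chromosome 17, 72121020 to 72126420, plus strand) was the highest of the 8 and the steadiest, with 78.9, 81.0 and 83.6 CPM in control replicates 1, 2 and 3 and 84.3, 84.0 and 84.3 CPM in IL17D-overexpressing replicates. The groups did not overlap, but the step from 81.1 ± 2.34 to 84.2 ± 0.185 CPM (SD, n = 3) was small. Its log2 fold change was 0.05 (standard error 0.049, 95% interval -0.05 to 0.15, adjusted p = 0.751 in edgeR's test), and the spread of its control libraries (2.89% of the mean) was about that of counting alone (2.81%).

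GATA6 (ENSG00000141448, chromosome 18, 22169443 to 22202528, plus strand) had 9.23, 12.9 and 11.4 CPM in control replicates 1, 2 and 3 and 11.5, 10.8 and 9.11 CPM in IL17D-overexpressing replicates. The groups overlapped over most of their range (11.2 ± 1.83 and 10.5 ± 1.23 CPM, SD, n = 3). The log2 fold change was -0.08 (standard error 0.130, 95% interval -0.35 to 0.18, adjusted p = 0.877 in edgeR's test), and its sign turned without control replicate 2 (0.024) or without IL17D replicate 3 (0.0026).

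NKX2-1 (ENSG00000136352, chromosome 14, 36516392 to 36521149, minus strand) had 9, 7 and 5 counts in control libraries (replicates 1, 2 and 3), and 2, 9 and 4 counts in IL17D-overexpressing libraries. These were 0.554, 0.484 and 0.311 CPM and 0.122, 0.547 and 0.280 CPM, and the groups overlapped, with the lowest value in an IL17D-overexpressing library. The gene was removed by the filter on low counts and has no value in the main test. When all genes with at least 1 count were fitted, its log2 fold change was -0.49 (standard error 0.675, 95% interval -1.82 to 0.83, adjusted p = 0.836 in edgeR's test), so neither a large fall nor a rise was detectable from 21 counts in all control and 15 in all IL17D-overexpressing libraries.

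**Figure D3:**
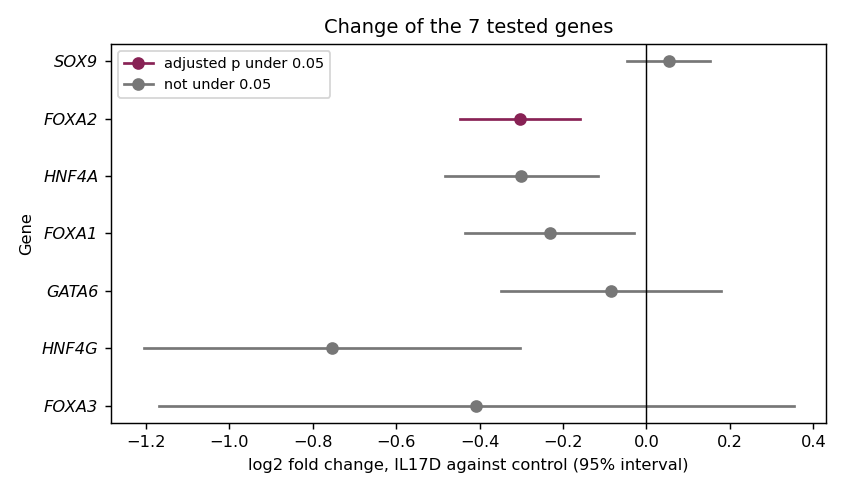
Log2 fold change of the 7 tested lineage factors, IL17D-overexpressing against control, from edgeR's fit across all genes (point, estimate; line, 95% interval; dark red, adjusted p under 0.05). FOXA2 at -0.30 is the single gene in dark red, and HNF4G at -0.75 and FOXA3 at -0.41 have the widest intervals.

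**Figure D4:**
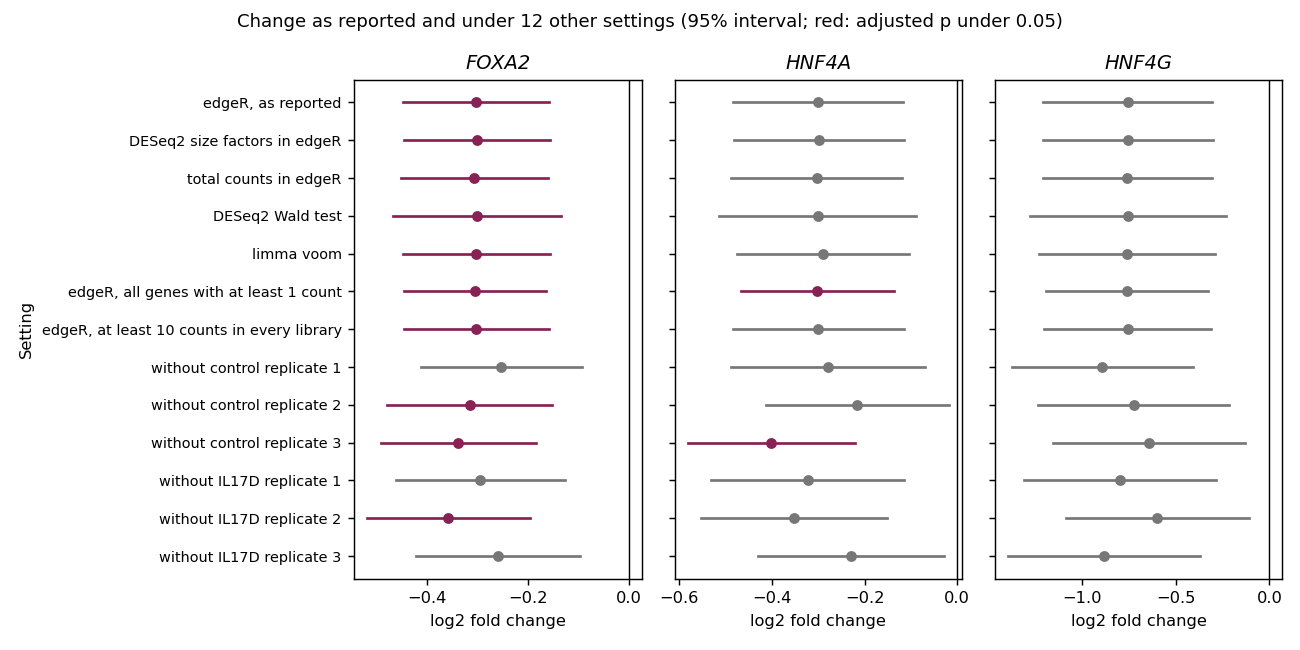
Log2 fold change of FOXA2, HNF4A and HNF4G as reported (top) and under 12 other settings of scaling, tool, filter and left-out library (point, estimate; line, 95% interval; dark red, adjusted p under 0.05; the panels have separate horizontal axes). All estimates lie below 0, FOXA2 loses its call in 3 of the fits that leave out a library, HNF4A gains a call in 2 of the settings drawn, and HNF4G is called in none.

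Proportions between the factors were compared as well. Ratios of RPKM were taken within each library for 4 pairs that were chosen with the levels known, and none can pass an adjusted test, because 3 libraries against 3 cannot give an exact permutation p under 0.1. The FOXA2 to FOXA1 ratio was 3.29 ± 0.504 in control and 3.12 ± 0.273 in IL17D-overexpressing cells (SD, n = 3, exact permutation test, two-sided p = 0.8, adjusted p = 0.8 over the 4 ratios). The HNF4G to HNF4A ratio was 0.228 ± 0.0645 and 0.167 ± 0.0488 (SD, n = 3, exact permutation p = 0.3, adjusted p = 0.4). The HNF4A to SOX9 ratio was 0.204 ± 0.0312 and 0.159 ± 0.0149 (SD, n = 3, exact permutation p = 0.2, adjusted p = 0.4). FOXA2 to SOX9 was the pair whose groups did not overlap, with 0.867, 0.777 and 0.729 in control and 0.609, 0.663 and 0.577 in IL17D-overexpressing libraries (exact permutation p = 0.1, the smallest possible, adjusted p = 0.4).

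Across the 6 libraries, FOXA2 and HNF4A had a Pearson correlation of log2 CPM of 0.851, and SOX9 ran opposite to both (-0.868 with FOXA2 and -0.826 with HNF4A). FOXA1 ran closest to GATA6 (0.781) and then to HNF4G (0.708), and FOXA3 closest to HNF4A (0.869). These values hold the group difference as well as the spread within groups and share the library totals, and they describe 6 points. Among 14356 tested genes with a mean of at least 1 CPM, the 2 most like SOX9 were PPP1R15B and SEMA3A (both 0.987), and the 2 most like FOXA2 were FZD2 (0.994) and PTGFRN (0.986). For HNF4A they were POLN (0.991) and DCUN1D3 (0.990), for FOXA1 SRGAP3 (0.991) and AC008764.2 (0.986), and for GATA6 GGT8P (0.996) and INTS2 (0.977). For HNF4G they were PPP1R3C (0.988) and AL033397.1 (0.987), and for FOXA3 TKFC (0.995) and AC245140.3 (0.994). None of these 14 genes was called by edgeR, and each tested factor had 25 to 52 genes at r above 0.95, so these names are the top of a long list.

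Genes of lung, of liver and intestine, of stomach and of cartilage were then read from 4 lists, alongside lists of other lineage factors and of cofactors. The lists go by tissue, and whether the 8 factors drive or repress these genes in A549 was not tested. In the list of lung epithelium genes, which NKX2-1, FOXA1, FOXA2 and GATA6 serve, 5 of 18 passed the filter, and the surfactant protein genes SFTPB and SFTPC were at 0.213 ± 0.030 and 0.090 ± 0.106 CPM in control cells (SD, n = 3). The lamellar body transporter ABCA3 (83.0 ± 4.37 and 85.1 ± 1.17 CPM), the surfactant lipid enzyme LPCAT1 (105.6 ± 7.55 and 115.8 ± 6.54 CPM) and the alveolar type I marker AGER (4.57 ± 0.203 and 4.64 ± 0.415 CPM, SD, n = 3 each) had log2 fold changes of 0.03, 0.13 and 0.02, with adjusted p of 0.872, 0.264 and 0.985 in edgeR's test. The other 2 tested genes were lower, each at an unadjusted p under 0.05. They were CLDN18, which encodes a tight junction protein (1.16 ± 0.361 and 0.558 ± 0.138 CPM, SD, n = 3, log2 fold change -1.05, adjusted p = 0.320 in edgeR's test), and NAPSA, an aspartic protease that processes surfactant protein (1.56 ± 0.704 and 0.857 ± 0.191 CPM, SD, n = 3, log2 fold change -0.87, adjusted p = 0.375 in edgeR's test). None of the 5 was called by edgeR, DESeq2 or limma voom, with 3, 2 and 2 at an unadjusted p under 0.05 (edgeR gave 11.6% of all tested genes), and the median log2 fold change was 0.02. Of the 3 with edgeR, 1 was higher and 2 were lower.

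In the list of liver and intestine genes, the domain of HNF4A, HNF4G and FOXA3, 14 of 35 were tested and 8 had no count at all. The 3 highest per length were TM4SF4, a tetraspan membrane protein of liver and gut (60.8 ± 0.981 and 55.1 ± 2.39 CPM, SD, n = 3, log2 fold change -0.14, adjusted p = 0.285 in edgeR's test), CDH17, the liver-intestine cadherin (48.7 ± 0.882 and 44.4 ± 2.26 CPM, SD, n = 3, log2 fold change -0.13, adjusted p = 0.396 in edgeR's test), and the plasma protein gene VTN (20.9 ± 1.59 and 24.4 ± 2.01 CPM, SD, n = 3, log2 fold change 0.22, adjusted p = 0.308 in edgeR's test). The fitted values were positive for 8 and negative for 6, with a median of 0.10. None was called by edgeR, DESeq2 or limma voom, with 6, 4 and 7 of the 14 at an unadjusted p under 0.05, against 11.6% of all tested genes in edgeR's test. Of the 6 with edgeR, 3 were higher and 3 were lower, so they share no direction.

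Among the 4 tissue lists, only the stomach genes held calls in edgeR's test. Of 14 listed, 6 were tested and 5 had no count in any library. At an adjusted p under 0.05, 2 fell and none rose, where 0.908% of all tested genes fell and 0.673% rose. These calls are of 2 single genes and do not show a change of stomach genes as a set. The fitted values were negative for 4 and positive for 2 of the 6 (up to 0.14), with a median log2 fold change of -0.36. AGR2, which encodes a disulfide isomerase needed for mucin folding, had 158, 155 and 167 CPM in control replicates 1, 2 and 3 and 135, 138 and 140 CPM in IL17D-overexpressing replicates, with no overlap. It fell from 160 ± 6.01 to 137 ± 2.49 CPM (SD, n = 3, log2 fold change -0.22, standard error 0.042, adjusted p = 0.00156 in edgeR's test), a call kept in all 13 other settings. The other was the secreted mucin gene MUC5AC (138 ± 7.32 and 75.3 ± 3.52 CPM, SD, n = 3, log2 fold change -0.88). TFF1, a trefoil peptide gene secreted with that mucin, had 1.63 ± 0.076 and 0.761 ± 0.132 CPM (SD, n = 3, log2 fold change -1.08, adjusted p = 0.165 in edgeR's test). Of 10 cartilage genes that SOX9 drives in chondrocytes, MATN3 (11.4 ± 0.682 and 10.0 ± 1.11 CPM, SD, n = 3, log2 fold change -0.18, adjusted p = 0.636 in edgeR's test) and COL11A2 (1.51 ± 0.767 and 1.07 ± 0.351 CPM, SD, n = 3, log2 fold change -0.52, adjusted p = 0.687) were tested, COL9A3 was at 0.319 ± 0.101 CPM in control cells, and no tool gave an unadjusted p under 0.05 for either tested gene.

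Of 45 other lineage factors, 29 were tested, 1 rose and 1 fell (0.673% and 0.908% of all tested genes), and the median of their log2 fold changes was -0.07. ELF3, an ETS factor of differentiated epithelium, had 139, 146 and 133 CPM in control replicates 1, 2 and 3 and 116, 116 and 112 CPM in IL17D-overexpressing replicates. It fell from 140 ± 6.15 to 115 ± 2.39 CPM (SD, n = 3, log2 fold change -0.28, standard error 0.044, adjusted p = 9.1e-05 in edgeR's test), close in size to FOXA2 at more than 3 times its CPM, and its call was kept in all 13 other settings. NKX2-5, the cardiac relative of NKX2-1, had 24.2, 25.5 and 26.2 CPM in control and 30.5, 30.7 and 31.7 CPM in IL17D-overexpressing libraries and rose from 25.3 ± 0.981 to 30.9 ± 0.655 CPM (SD, n = 3, log2 fold change 0.29, standard error 0.077, adjusted p = 0.0462 in edgeR's test). That call was kept in 5 of 13 other settings, and it was lost with total counts as the scaling (0.0507), with DESeq2 (0.0831), with all genes of at least 1 count (0.0624) and without control replicate 1 (0.190), control replicate 2 (0.114), IL17D replicate 1 (0.106), IL17D replicate 2 (0.100) or IL17D replicate 3 (0.191). The 2 highest of the list per length, ID2 and ETV4, markers of the distal lung tip, had log2 fold changes of 0.02 and 0.00 with adjusted p of 0.937 and 0.997 in edgeR's test.

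All 12 cofactors and competitors were tested and none was called by edgeR, DESeq2 or limma voom, with 4, 1 and 4 at an unadjusted p under 0.05 (11.6% of all tested genes in edgeR's test) and a median log2 fold change of 0.05. NR2F6 and NR2F2, orphan receptors that can compete for HNF4 sites, had 104 ± 4.59 and 108 ± 8.31 CPM, and 63.2 ± 2.32 and 68.7 ± 1.88 CPM in control and IL17D-overexpressing cells (SD, n = 3, log2 fold changes 0.05 and 0.12, adjusted p = 0.790 and 0.371 in edgeR's test). TLE1, a corepressor that FOXA proteins bind, had 130 ± 4.37 and 122 ± 4.15 CPM (SD, n = 3, log2 fold change -0.09, adjusted p = 0.401 in edgeR's test). In single fits that left out a library, 1 lung gene (without control replicate 3) and 1 cofactor (without IL17D replicate 3) were called higher.

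**Figure D5:**
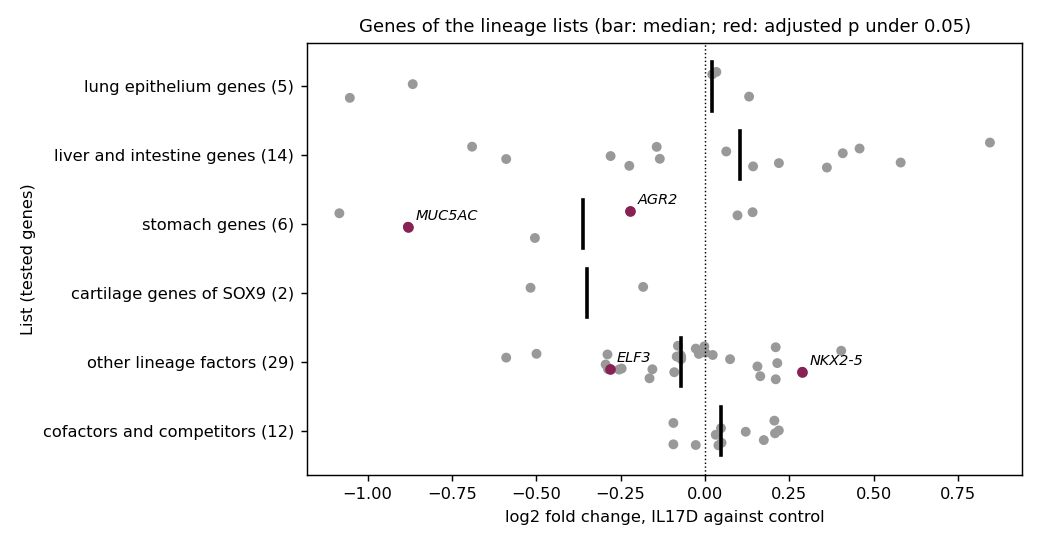
Log2 fold change, IL17D-overexpressing against control, of each tested gene in 6 lists (1 point per gene, number tested in brackets, vertical bar at the list's median, dark red for an adjusted p under 0.05, vertical spread of points arbitrary). MUC5AC, AGR2 and ELF3 lie left of 0 and NKX2-5 right of it in dark red, and list medians run from -0.36 to 0.10.

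The surroundings of the 8 genes on the chromosome were also read. Within 500 kb of their starts, 56 other genes were tested, 32 of them around FOXA3 and 11 around HNF4A, and none was called by edgeR, DESeq2 or limma voom. An unadjusted p under 0.05 was found for 10, 6 and 8 of the 56, against 11.6% of all tested genes with edgeR, and their median log2 fold change was 0.02. The single tested neighbour of FOXA2 had a log2 fold change of -0.16. FOXA1 and NKX2-1 start 1.07 Mb apart on chromosome 14, with 4.99 RPKM for the first and 0.142 RPKM for the second in control cells. FOXA2 and HNF4A start 21.8 Mb apart on chromosome 20. Of 7 noncoding genes beside the 8 factors none passed the filter, and the 3 highest per length, GATA6-AS1 (0.560 ± 0.216 CPM), LINC01152 (0.595 ± 0.240 CPM) and HNF4A-AS1 (0.0852 ± 0.0943 CPM, SD, n = 3 control libraries each), stayed under 1 CPM.

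Reads could be shared with other genes for some of these factors. GATA6 overlaps GATA6-AS1 and AC091588.3 of the opposite strand over 14.2% of its exonic bases. NKX2-1 overlaps NKX2-1-AS1 of the opposite strand and AL132857.1 of the same strand over 12.7% of its exonic bases. Whether the counting used strand is not given in the sources used here, so reads in these stretches are uncertain for both genes. GATA6-AS1 had 11, 10 and 5 counts in control and 7, 1 and 8 in IL17D-overexpressing libraries, and NKX2-1-AS1 and AL132857.1 had none. FOXA2 and FOXA1 share short sequence, with 4.08% of the 31-base stretches of FOXA2 and 1.60% of those of FOXA1 found in other genes. FOXA1 shared them with FOXA2 alone, and FOXA2 with FOXA1 and AL121722.1, which had no count. HNF4G shared 2.05% of its stretches, among others with its pseudogene HNF4GP1, which had no count, and FOXA3 shared none.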

How the data were processed

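RNA-seq of 3 control and 3 IL17D-overexpressing A549 libraries was analysed from 1 table of raw counts per gene deposited by the authors, without normalization, together with the gene length. The submitters' processing notes name Bowtie2 and hg38. The counting tool and its strand setting are not given in the sources used here. No per-sample column was left out (0). Gene IDs matched GENCODE 29 coordinates on GRCh38 for 58724 of 58735 genes, and the deposited length equalled the summed exon length for all 8 members.

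Counts were compared in R 4.3.3 with edgeR 4.0.16 (filterByExpr, TMM, glmQLFit and glmQLFTest, two-sided, Benjamini-Hochberg over 15754 tested genes, no covariates, all 6 libraries). They took 99.8% or more of each library's counts, and TMM factors were 0.997 to 1.004. Libraries of a group differed by more than counting error (chi-square per degree of freedom 2.17 to 3.49), so none was counted as a repeat. CPM are TMM-scaled, and RPKM are CPM per kilobase of deposited length. Errors are the SD of 3 libraries. Alternatives were DESeq2 1.42.0 (size factors and Wald test), limma voom 3.58.1, total counts, 2 other filters, the replicate number as a block and each library left out. Steps were tested on simulated data. Ratios were compared in Python 3.11.15 with scipy 1.17.1, and figures drawn with matplotlib 3.10.9.

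Members and lists were chosen with earlier results of these data known. Named were all 8 members, in each list the genes with an adjusted p under 0.05 and the 3 highest by control RPKM, the 2 genes most correlated with each tested member, and called neighbours within 500 kb. Other genes named (SFTPB, SFTPC, CLDN18, NAPSA, CDH1, FOXC1 and the markers), the ratios and the family counts were chosen after their values were seen.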

Additional observations from a re-analysis of the deposited data

How the results depend on the processing

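Leaving out each library in turn gave 70 to 133 genes higher and 77 to 137 genes lower at an adjusted p under 0.05, against 106 and 143 with all libraries. The low counts were 70 higher and 77 lower without IL17D replicate 3, and 82 and 95 lower without IL17D replicate 1 and without control replicate 2. FOXA2 kept its direction in all 13 alternatives (log2 fold change -0.36 to -0.25, adjusted p 0.00462 to 0.162 by the tool of each alternative) and its call in 10, losing it without control replicate 1 (-0.25), IL17D replicate 1 (-0.29) and IL17D replicate 3 (-0.26). HNF4A stayed lower in all 13 (adjusted p 0.00744 to 0.448, -0.40 to -0.22 over the left-out libraries) and passed the threshold with all genes of at least 1 count (-0.30), with the replicate block (-0.30, adjusted p = 0.0316 in edgeR's test) and without control replicate 3 (-0.40). GATA6 reversed without control replicate 2 (0.024) and without IL17D replicate 3 (0.0026), within a range of -0.21 to 0.02. HNF4G (-0.89 to -0.60), FOXA1 (-0.30 to -0.16), FOXA3 (-0.70 to -0.21) and SOX9 (0.03 to 0.08) kept direction and stayed uncalled in all 13, apart from FOXA3 under DESeq2, which gave no adjusted p. The replicate numbers did not pair the libraries: deviations from the group means correlated at 0.00997, -0.0119 and -0.0151 for numbers 1, 2 and 3, and with the block 115 genes were higher and 157 lower. Control levels of all 8 genes moved by less than 1 SD with total counts or DESeq2 size factors as the scaling. Leaving out 1 of 3 control libraries cannot move their mean by 1 SD, so those fits do not test the levels. Depth limits FOXA3 (10 to 25 counts per library) and NKX2-1 (2 to 9). The cause of these shifts was not tested.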

Other observations

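Each factor was also set among the genes of its DNA-binding family, as the count table's own family column names them, a reading chosen after the table was seen. At an adjusted p below 0.05, edgeR called 0.673% of all tested genes higher and 0.908% lower. Of 47 forkhead genes 27 were tested, and 1 was called higher and 1 lower. The one that fell was FOXA2, the second highest forkhead gene per length in control cells (rank 2 of 27), with FOXA1 at rank 13 and FOXA3 at rank 24. The one that rose was FOXC1, a factor of mesenchyme and eye development, with 31.9, 39.3 and 34.9 CPM in control replicates 1, 2 and 3 and 44.0, 44.8 and 42.9 CPM in IL17D-overexpressing replicates. FOXC1 went from 35.4 ± 3.68 to 43.9 ± 0.943 CPM (SD, n = 3, log2 fold change 0.31, standard error 0.071, adjusted p = 0.0115 in edgeR's test), with no overlap between the groups. Its call was kept in 11 of 13 other settings and was lost without control replicate 1 (adjusted p = 0.131) and without IL17D replicate 1 (0.0529). FOXA2 and FOXC1 thus moved by about the same size in opposite directions.

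Among 9 tested nuclear receptors of the RXR-like family, HNF4A ranked 7 and HNF4G 9 per length, and none was called by edgeR, DESeq2 or limma voom, with 4, 2 and 4 at an unadjusted p under 0.05, which edgeR gave for 11.6% of all tested genes. GATA6 ranked 7 of 9 tested GATA zinc finger genes, of which these tools called none and found 0 at an unadjusted p under 0.05. The highest of them were MTA2, MTA1 and RERE, so this is not a rank among the genes named GATA alone. SOX9 ranked 8 of 37 tested HMG genes, again with none called and with 5, 2 and 5 at an unadjusted p under 0.05. The highest HMG genes were SSRP1, HMGB2 and HMGB3, so this rank too covers more than the SOX genes. Of 87 tested homeobox genes, NKX2-5 was the only one called by edgeR, limma voom called 1 and DESeq2 called none, with 9, 6 and 4 at an unadjusted p under 0.05 in edgeR, limma voom and DESeq2. Over all 1054 tested genes with a factor family, edgeR called 15 higher and 9 lower, with a median log2 fold change of 0.01. Of all tested genes, with or without a family, edgeR called 0.673% higher and 0.908% lower.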
